A study of Mus musculus with 18 samples.

Results

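Genes of the clot, of its removal and of the provisional matrix that fills a wound were followed in microglia and macrophages of the injured mouse spinal cord. The 9 genes were chosen by name: F3, F10, F13a1, Tgm2, Fn1, Thbs1, Plau, Plaur and Serpinb2. Each was found once among the 53465 genes of the count table. Adult female C57BL/6J mice received a contusion of the spinal cord and, 48 h later, a single injection into the cord of PBS (vehicle), recombinant IL-13 (rIL-13) or recombinant IL-4 (rIL-4). Cells were collected 24 h after the injection from 9 mice, 3 for each treatment, and every mouse gave 1 library of microglia (CD45low, CD11b+, F4/80+) and 1 of macrophages (CD45high, CD11b+, F4/80+), 18 libraries in all. Every group carried the lesion, so no value here compares injured with uninjured cord, and the 2 cell classes rest on the CD45 gate alone.

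When blood leaks into tissue, tissue factor on the surface of cells binds factor VII, and this complex activates factor X. Factor Xa then generates thrombin, which cuts fibrinogen to fibrin and activates the transglutaminase factor XIII. Transglutaminases join fibrin and fibronectin strands by covalent bonds and so turn a clot into a stable provisional matrix on which cells can crawl. Thrombospondin-1 is a matricellular protein released by platelets and macrophages that modulates cell adhesion and the activation of TGF-β. Urokinase bound to its receptor converts plasminogen to plasmin, which dissolves fibrin, and plasminogen activator inhibitors restrain it. Macrophages are a major source of cellular factor XIII-A and of several of these factors in wounds.

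The libraries held between 35961305 and 45849829 assigned counts, so depth was similar in all groups. Monocyte and macrophage markers summed to between 748476 and 861409 normalized counts in the PBS macrophages and to between 93335 and 120413 in the PBS microglia. The 8 microglia markers ran the other way, from 220248 to 389519 in the PBS microglia and from 100944 to 148853 in the PBS macrophages, so each class had more of its own markers and neither was free of the other's. Levels below are normalized counts, that is, counts divided by a size factor for each library. In bulk libraries, fewer cells of a type and less RNA per cell cannot be told apart.

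Per kilobase of exon, Tgm2 was the most abundant of the 9 genes in microglia under every treatment, with a mean level of 3692 normalized counts per kb with PBS, 15151 with rIL-13 and 23590.0 with rIL-4. In macrophages given PBS, Thbs1 led with 46784 ± 11475 normalized counts per kb (SD, n = 3), ahead of Tgm2 with 11082 ± 1642. After rIL-4 the order was different, since Tgm2 reached 35133 ± 21271 and Fn1 18031 ± 3704 normalized counts per kb while Thbs1 stood at 10486 ± 4077. F3 and Serpinb2 held the 2 lowest places in macrophages under all 3 treatments, at a mean of no more than 49.7 normalized counts per kb.

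**Figure D1:**
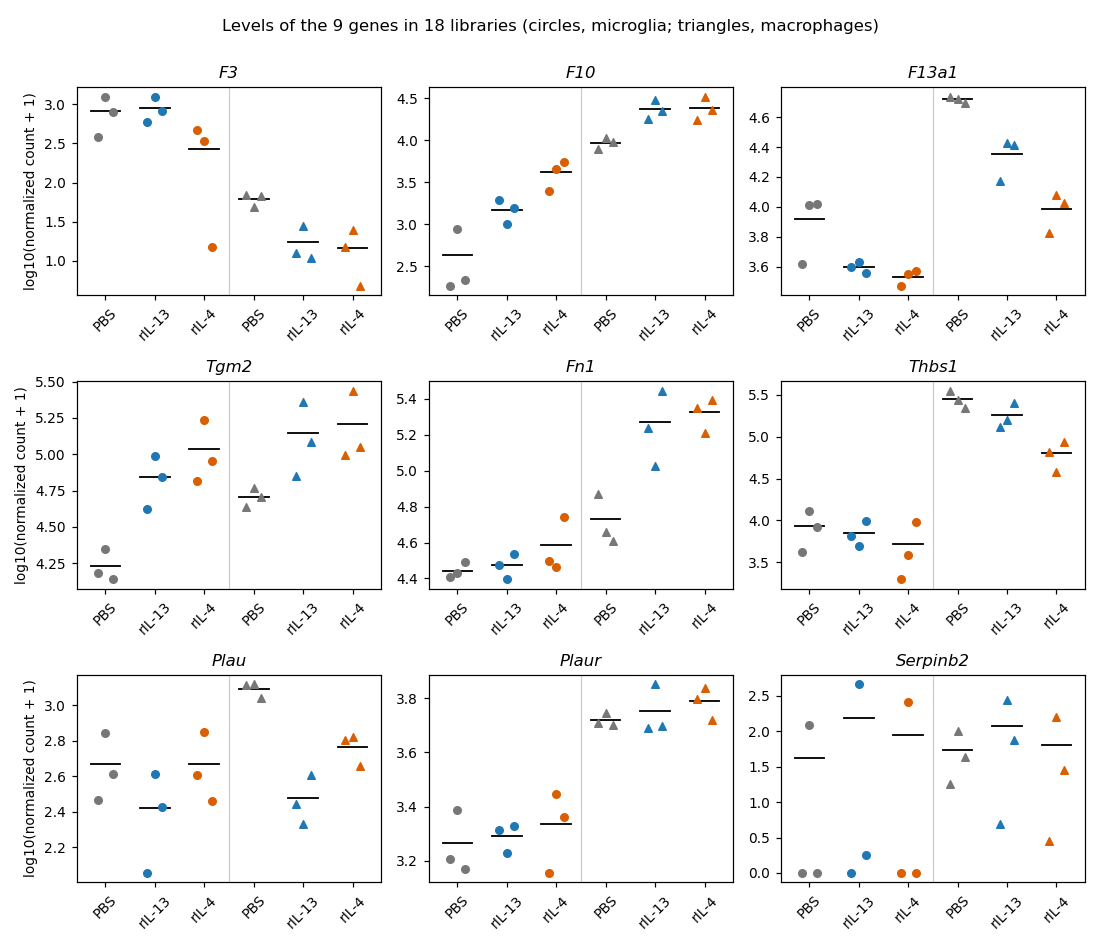
Normalized counts of the 9 genes in each of the 18 libraries, as log10 of the normalized count plus 1, with a panel for each gene and its own vertical range. Points are single mice, circles microglia and triangles macrophages, and the black lines are group means. The mean of F3 was higher in microglia, whereas those of F10, F13a1, Tgm2, Fn1, Thbs1, Plau and Plaur were higher in macrophages under every treatment.

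In macrophages rIL-4 moved most of these genes. It raised F10, Tgm2 and Fn1, which encode the zymogen of factor Xa, tissue transglutaminase and fibronectin, and lowered F13a1, Thbs1 and Plau, which encode the factor XIII A chain, thrombospondin-1 and urokinase. These were 6 of the 9 genes at an adjusted p under 0.05 by edgeR's quasi-likelihood test, where 14.0% of the 13606 genes tested passed. With rIL-13 the 4 genes F10, Fn1, F13a1 and Plau changed in the same directions, against 4.19% of all genes. In microglia rIL-4 raised F10 and Tgm2, 2 of the 9 genes against 2.22% of 15566 genes tested. No member passed for rIL-13 in microglia by edgeR, where 0.366% of all genes did, although 3 members had an unadjusted p under 0.05, as did 7.76% of all genes. DESeq2, which called 2.07% of all genes, called these 3, which were F10, F13a1 and Tgm2. The 2 cytokine groups of a cell type were compared with the same 3 PBS libraries, so their responses are not independent of each other.

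**Figure D2:**
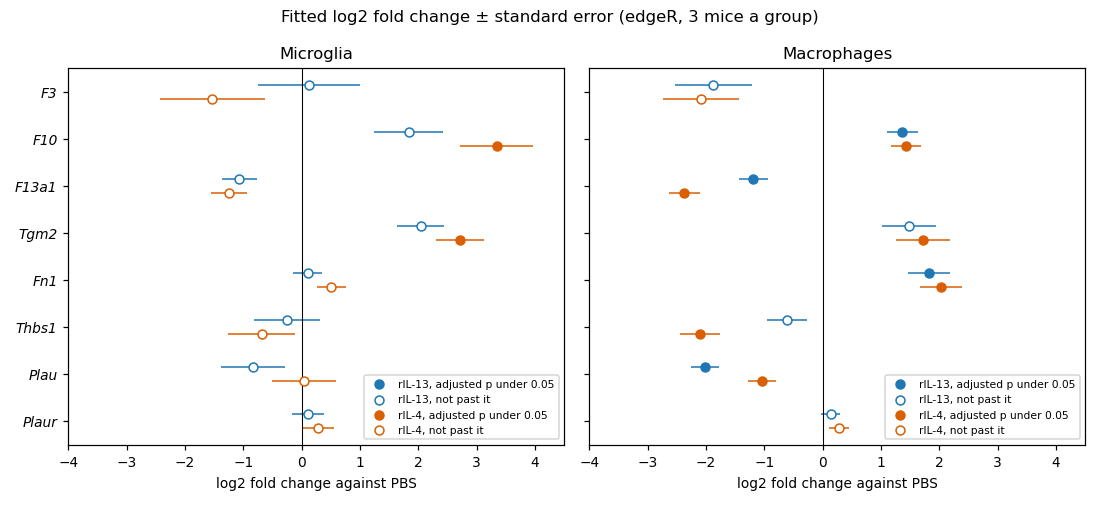
Fitted log2 fold change against PBS with its standard error for 8 of the genes, in microglia (left) and macrophages (right), from 3 mice a group. Filled points have an adjusted p under 0.05 by edgeR. Serpinb2 is left out because 5 microglia libraries held none of its reads. In macrophages F10 and Fn1 rose and F13a1 and Plau fell with both cytokines.

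F3 on chromosome 3 (GRCm38 chr3:121723537-121735048, plus strand) encodes tissue factor, the membrane receptor that starts clotting. In microglia its level was 385, 1236 and 805 normalized counts in the 3 PBS mice. With rIL-13 it was 599, 1241 and 815 in mice 5, 6 and 7. With rIL-4 it was 464, 335 and 13.9 in mice 8, 9 and 10. The rIL-4 microglia thus spanned a wide range that overlapped PBS, with mouse 10 far below the others, and the log2 fold change of -1.54 ± 0.90 (SE) did not pass (edgeR adjusted p = 0.467). Macrophages carried far less, with 68.9, 47.0 and 66.6 normalized counts after PBS. Each cytokine group lay below these, at 11.6, 27.1 and 9.78 with rIL-13 and at 13.8, 23.6 and 3.80 with rIL-4. The groups did not overlap with PBS, but the fitted log2 fold changes in macrophages, -1.87 ± 0.65 (SE) for rIL-13 and -2.09 ± 0.66 for rIL-4, missed the threshold (edgeR adjusted p = 0.159 and 0.0602). The rIL-4 difference passed by DESeq2 (adjusted p = 0.0119) and when mouse 9 was left out (adjusted p = 0.0421).

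F3 is also made by stromal cells, and the 9 fibroblast and pericyte markers were all present in microglia libraries, although the CD45, CD11b and F4/80 gate should leave such cells out, as it should endothelial cells, astrocytes, platelets and neutrophils, and the sorted cells were checked for purity. Their sum was 102783 to 149824 normalized counts in PBS microglia, 51768 to 333261 with rIL-13 and 9137 to 63480.1 with rIL-4. Mouse 6 (rIL-13), whose microglia had the highest F3 of the 9, also had the highest marker sum, and mouse 10 (rIL-4) had the lowest of both. The libraries between these extremes did not all keep this order. The microglia of mouse 7 (rIL-13) had 815 normalized counts of F3 with a marker sum of 51768, and those of mouse 1 (PBS) 385 with 102783. The same markers summed to between 11.4 and 372 normalized counts in the macrophage libraries. The part of stromal RNA in the F3 level of the microglia libraries was not tested. In macrophages the microglia markers fell alongside F3, from 100944 to 148853 with PBS to 41098 to 86421 with rIL-13 and 17537 to 32948 with rIL-4, and their part in that difference was not tested either.

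**Figure D3:**
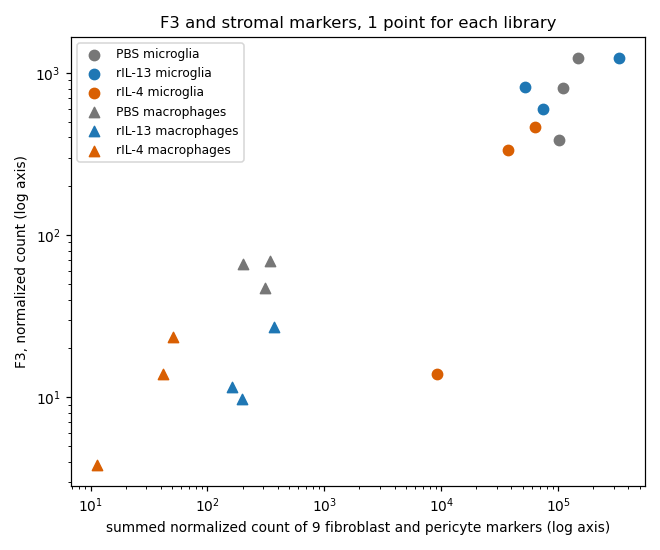
F3 (vertical, normalized count, log axis) against the summed normalized count of 9 fibroblast and pericyte markers (horizontal, log axis), 1 point for each of the 18 libraries. Microglia lie to the right and, except for mouse 10 (rIL-4), above the macrophages. The microglia of mouse 10, with 13.9 normalized counts of F3, lie below the PBS macrophages and have the lowest marker sum among microglia.

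F10 (chr8:13037308-13056676, plus strand) encodes factor X. With rIL-4 it was the member with the largest fitted change in microglia, Serpinb2 left aside. PBS microglia held 185, 881 and 213 normalized counts, rIL-13 microglia 1925, 1019 and 1544, and rIL-4 microglia 2485, 4579.9 and 5557.5. The 3 treatments were separated without overlap in this order. The fitted log2 fold change was 3.35 ± 0.62 (SE) for rIL-4 against PBS, a 10.2-fold rise (edgeR adjusted p = 0.0282). It ranged from 2.99 to 4.42 over the alternatives and lost the call without PBS mouse 1, PBS mouse 3, rIL-4 mouse 9 or rIL-4 mouse 10, with an adjusted p of up to 0.121. For rIL-13 the log2 fold change of 1.83 ± 0.59 did not pass by edgeR (adjusted p = 0.434) and passed by DESeq2 (adjusted p = 0.0421).

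Macrophages started from a higher level of F10, with 7974, 10605 and 9476 normalized counts after PBS. They reached 17943, 30603 and 22617 with rIL-13 and 17372, 32961 and 22846.5 with rIL-4. All 6 treated libraries lay above the 3 PBS libraries. The log2 fold changes were 1.37 ± 0.26 (SE) for rIL-13 (edgeR adjusted p = 0.0167) and 1.43 ± 0.26 for rIL-4 (adjusted p = 0.0051), so the cytokines could not be ordered (log2 difference 0.07 ± 0.25, adjusted p = 0.953). With all 18 libraries in 1 model neither macrophage response passed (adjusted p = 0.255 and 0.0964). The rIL-13 call was also lost when mouse 1 or 3 (PBS) or mouse 7 (rIL-13) was left out.

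F7, which encodes factor VII, the partner of tissue factor, lies next to F10 on the same strand of chromosome 8 (chr8:13026034-13035809), with 1498 bp and 0 annotated genes between the 2. F7 followed the same order in microglia, with 135, 286 and 197 normalized counts after PBS, 1599, 469 and 1981 with rIL-13 and 3387, 3021 and 5755 with rIL-4. Its rise with rIL-4 was 4.33 ± 0.57 (SE) on the log2 scale, or 20.2-fold (edgeR adjusted p = 0.00695). In macrophages F7 rose from 6786 ± 873 normalized counts (SD, n = 3) with PBS to 15347 ± 5864 with rIL-13 (adjusted p = 0.0395) and to 20887 ± 3549.5 with rIL-4 (adjusted p = 0.00337). Both neighbours therefore rose with rIL-4 in both cell types. Because macrophages held far more of both transcripts, the level of macrophage markers in the microglia libraries stands beside this result. All 8 monocyte and macrophage markers were detected there, and their sum, most of it Lyz2, was 93335 to 120413 normalized counts with PBS, 57959 to 159986 with rIL-13 and 93407 to 187386 with rIL-4. Of the 8 markers, 7 overlapped between PBS and each cytokine in microglia. Emilin2 alone did not, at 1515 to 3745 normalized counts with PBS, 3959 to 4669.8 with rIL-13 and 4185 to 5662 with rIL-4. Ccr2, the chemokine receptor of inflammatory monocytes, was 411, 1142 and 438 in these libraries with PBS and 1480.4, 914 and 2481 with rIL-4, which overlapped. The part of macrophage RNA in the rise of F10 and F7 in microglia was not tested.

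**Figure D4:**
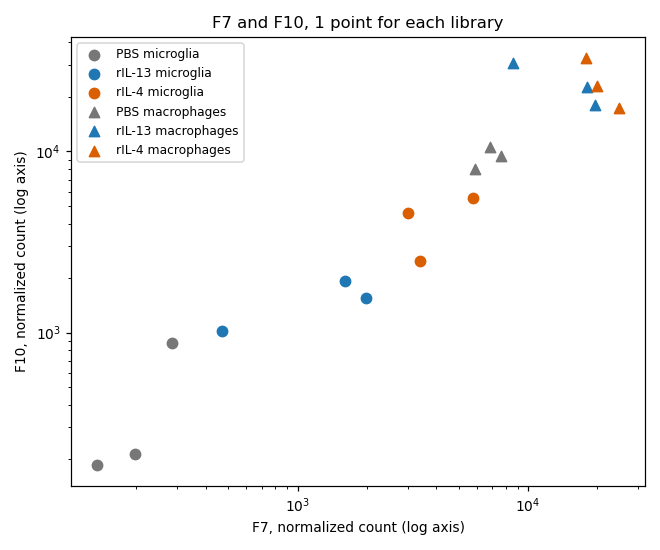
F10 (vertical) against its chromosomal neighbour F7 (horizontal), both as normalized counts on log axes, 1 point for each library. In microglia (circles) the PBS libraries lie lowest and the rIL-4 libraries highest on both axes. All macrophage libraries (triangles) lie above all microglia libraries.

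F13a1 (chr13:36867178-37050244, minus strand) encodes the catalytic A chain of factor XIII, the transglutaminase that joins fibrin strands. In PBS macrophages it stood at 54368, 52809 and 49738 normalized counts, the tightest group of any member, with a coefficient of variation of 4.5%. It dropped to 14887, 26754.5 and 26029.5 with rIL-13, and to 6701, 11921 and 10589 with rIL-4. The 3 treatments did not overlap. The log2 fold change was -1.19 ± 0.25 (SE) for rIL-13 (edgeR adjusted p = 0.0299) and -2.37 ± 0.26 for rIL-4 (adjusted p = 0.000405). The rIL-4 call held in every alternative tried, while the rIL-13 call was lost with 18 libraries in 1 model and without PBS mouse 1, 2 or 3 or rIL-13 mouse 5 or 7 (adjusted p up to 0.0973). Between the cytokines the difference was -1.19 ± 0.25 with an adjusted p of 0.100, which became 0.00157 by DESeq2.

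Microglia contained less F13a1. The levels were 4174, 10207 and 10449 normalized counts with PBS, 3945, 4268 and 3586 with rIL-13, and 2967, 3531 and 3714 with rIL-4. PBS mouse 1 lay within the rIL-13 range, and the other 2 PBS mice lay well above all treated mice. The rIL-13 difference of -1.07 ± 0.30 (SE) on the log2 scale did not pass by edgeR (adjusted p = 0.333) and passed by DESeq2 (adjusted p = 0.0326) and without PBS mouse 1 (adjusted p = 0.0225). The log2 fold change of -1.25 ± 0.30 (SE) for rIL-4 missed the threshold by edgeR (adjusted p = 0.0773) and passed by DESeq2 (adjusted p = 0.00174), without PBS mouse 1 (adjusted p = 0.00784), with 18 libraries in 1 model (adjusted p = 0.0206) and under the strict count filter (adjusted p = 0.0382).

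Tgm2 (chr2:158116402-158146436, minus strand) encodes tissue transglutaminase, which cross-links fibronectin and other matrix proteins. Microglia given PBS held 15128, 22143 and 13761.5 normalized counts. With rIL-13 they held 41968, 98026.5 and 69458, and with rIL-4 65592, 171154 and 89363. Every treated library exceeded every PBS library. Endothelial markers in these microglia summed to 35230.4 to 75982.5 normalized counts with PBS, 65562 to 114145 with rIL-13 and 80161 to 104654 with rIL-4. The rise with rIL-4 was 2.71 ± 0.41 (SE) on the log2 scale, 6.56-fold (edgeR adjusted p = 0.0119), and was not called without PBS mouse 1 or PBS mouse 3 (adjusted p up to 0.0812). The rIL-13 difference of 2.04 ± 0.40 did not pass by edgeR (adjusted p = 0.103) and passed by DESeq2 (adjusted p = 2.84e-06) and under both other count filters (adjusted p = 0.0399 and 0.032).

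In macrophages Tgm2 was 43484, 58619 and 51089 normalized counts with PBS, 70573, 228890.5 and 121465 with rIL-13, and 98709, 274805 and 112168 with rIL-4. No treated library overlapped with PBS, but the treated mice spread more than 2-fold, with mouse 6 and mouse 9 highest. The 8 endothelial markers were all detected and also lay higher in treated macrophages, with sums of 1788 to 2149.9 normalized counts with PBS, 5114 to 8398 with rIL-13 and 7959.5 to 16196 with rIL-4, with mouse 6 and mouse 9 again highest of their treatments. The part of endothelial RNA in the Tgm2 levels was not tested in either cell type. The rIL-4 rise of 1.71 ± 0.46 (SE) passed (edgeR adjusted p = 0.0333) and was lost without any 1 of the PBS mice or rIL-4 mouse 9 (adjusted p up to 0.118). The rIL-13 difference of 1.48 ± 0.46 did not pass (adjusted p = 0.114), except by DESeq2 (0.0119), with all genes that had any count (0.0132) and without mice 2, 6 and 9 (0.0422).

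Tgm2 and F13a1 both encode transglutaminases, and their ratio per kilobase of exon was also formed. Mean Tgm2 was higher and mean F13a1 lower with each cytokine, so the ratio had to move further than either level. The ratio of Tgm2 to F13a1 was 1.17 to 1.62 in the PBS macrophages, 6.82 to 12.5 in those given rIL-13 and 15.5 to 33.7 in those given rIL-4. The microglial ratio was 1.93 to 5.30 after PBS, 15.6 to 33.6 after rIL-13 and 32.3 to 70.9 after rIL-4. In both cell types the PBS ratios lay below all treated ratios. This ratio was chosen after the levels were seen and was given no test.

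Promoters of the clotting genes are shown because F10 and F13a1 changed in opposite directions in the same macrophages, whereas F3, Plaur and Serpinb2 did not pass the test there. RefSeq promoters on GRCm38.p6, from 250 bases before to 50 after the start, were found for 5 of the 9 genes (F3, F10, F13a1, Plaur and Serpinb2). Below are the 150 bases before the start on the gene's own strand, with F13a1 and Serpinb2 taken at their first start, and capitals mark any match to the 4 motifs searched on both strands. These were 2 spacings of the STAT palindrome, TTCNNNNGAA (in 6.95% of 32851 RefSeq promoters of this length) and TTCNNNGAA (8.3%), the AP-1 motif TGANTCA (7.81%) and the PU.1 core GAGGAA (28.3%). F10 lies at chr8:13037158-13037307 (plus), F13a1 at chr13:37050245-37050394 (minus), F3 at chr3:121723387-121723536 (plus), Plaur at chr7:24462333-24462482 (plus) and Serpinb2 at chr1:107511273-107511422 (plus).
F10: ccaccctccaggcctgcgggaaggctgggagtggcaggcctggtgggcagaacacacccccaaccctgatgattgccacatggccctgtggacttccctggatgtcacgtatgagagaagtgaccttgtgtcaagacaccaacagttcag
F13a1: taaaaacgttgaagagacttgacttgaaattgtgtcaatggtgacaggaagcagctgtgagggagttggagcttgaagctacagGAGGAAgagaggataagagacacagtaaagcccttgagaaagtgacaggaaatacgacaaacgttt
F3: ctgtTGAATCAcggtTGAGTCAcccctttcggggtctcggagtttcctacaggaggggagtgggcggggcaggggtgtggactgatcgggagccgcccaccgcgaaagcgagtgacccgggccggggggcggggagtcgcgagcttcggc
Plaur: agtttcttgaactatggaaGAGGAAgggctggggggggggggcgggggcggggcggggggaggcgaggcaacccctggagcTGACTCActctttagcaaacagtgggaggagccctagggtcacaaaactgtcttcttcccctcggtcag
Serpinb2: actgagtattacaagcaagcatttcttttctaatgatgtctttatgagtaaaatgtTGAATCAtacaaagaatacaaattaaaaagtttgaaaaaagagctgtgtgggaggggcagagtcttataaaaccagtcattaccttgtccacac

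The stretch before F3 held 2 AP-1 matches, at its bases 5 and 16, and that before Plaur held 1 at base 82 and a PU.1 core at base 20. F13a1 held a PU.1 core at base 85 and Serpinb2 an AP-1 match at base 57. Serpinb2 was also the only 1 of the 5 with a STAT match in its 300-base window, TTCCAAGAA at base 161 counted from the first printed base and so after the start. The F10 stretch held none of the 4 motifs, which says only that these letters are not in this window. A match describes the sequence and is not a measured binding site.

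Fn1 (chr1:71585520-71653200, minus strand) encodes fibronectin, the adhesive protein of the provisional matrix. It rose in macrophages with both cytokines. PBS macrophages held 74528, 45745 and 40735 normalized counts, rIL-13 macrophages 172973, 106107 and 278622, and rIL-4 macrophages 223832.5, 162369 and 245873. All 6 treated libraries exceeded the 3 PBS libraries. The log2 fold change was 1.83 ± 0.35 (SE) for rIL-13 (edgeR adjusted p = 0.0194) and 2.03 ± 0.36 for rIL-4 (adjusted p = 0.0045). The rIL-4 call held in every alternative tried, and the rIL-13 call was lost when mouse 2 or 3 (PBS) or mouse 7 (rIL-13) was left out (adjusted p up to 0.0988). Endothelial markers, given beside Tgm2, were also higher in all treated macrophages than with PBS, and so were astrocyte markers, with sums of 439.8 to 596 normalized counts with PBS, 2091 to 15227 with rIL-13 and 2120.2 to 18678 with rIL-4. Their part in the Fn1 levels was not tested.

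Microglia had a steady level of Fn1 with PBS and rIL-13. It was 25442, 27109 and 30896 normalized counts with PBS, 29786.5, 24859 and 34346 with rIL-13, and 31592, 28911 and 55000.1 with rIL-4. The groups overlapped, with only mouse 10 (rIL-4) standing above the others. Neither the rIL-13 difference of 0.10 ± 0.25 (SE) nor the rIL-4 difference of 0.50 ± 0.25 on the log2 scale passed (edgeR adjusted p = 1.00 and 0.361).

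Thbs1 (chr2:118111876-118127133, plus strand) encodes thrombospondin-1. With PBS it was the member with the greatest distance between the cell types. PBS macrophages held 357016, 277179.5 and 218164 normalized counts. The level was 130638, 159725 and 256425 with rIL-13, which overlapped PBS, and 65962, 37856 and 87221 with rIL-4, which lay below both. The fitted log2 fold change of -2.10 ± 0.35 (SE) for rIL-4 was called (edgeR adjusted p = 0.00324), also in every alternative. For rIL-13 it was -0.61 ± 0.34 (adjusted p = 0.390). The cytokines differed by -1.49 ± 0.34 with an adjusted p of 0.114, which became 0.000821 by DESeq2 and 0.00607 with all genes that had any count.

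Thbs1 in microglia was 4152, 13055 and 8335 normalized counts with PBS, 6464, 4973 and 9843 with rIL-13 and 1973, 3875 and 9613 with rIL-4. The 3 groups overlapped and no comparison passed. In macrophages the ratio of Fn1 to Thbs1 per kilobase was 0.0858 to 0.109 after PBS, 0.345 to 0.688 after rIL-13 and 1.47 to 2.23 after rIL-4. This ratio too was chosen after the levels were seen and was given no test.

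F13a1 and Thbs1 are also platelet products, so platelet markers were set beside them. The 10 platelet and megakaryocyte markers summed to 14302 to 32456 normalized counts in PBS macrophages, 20172 to 58511 with rIL-13 and 4876 to 13077 with rIL-4. Most of that sum was Pf4, which ranged from 13945 to 31912.5 in PBS macrophages and from 4748 to 12717 with rIL-4. The defining platelet glycoprotein genes Gp5 and Gp6 had 0 counts in all 9 macrophage libraries, and Itga2b and Gp9 did not exceed 20.3 and 29.4 normalized counts there. Gp1ba reached 7.64, Gp1bb 2.18, Treml1 16.2 and Tubb1 7.90 normalized counts in these libraries, and Ppbp ranged from 103 to 2602. Other marker sums were lower with rIL-4 in these macrophages too. Neutrophil markers were 45748 to 72163 normalized counts with PBS and 11846.5 to 38812 with rIL-4. Monocyte and macrophage markers were 748476 to 861409 with PBS and 377056 to 600125 with rIL-4. With rIL-13 both sums overlapped PBS. The part of platelet RNA, or of the cells of these other markers, in the F13a1 and Thbs1 levels was not tested.

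Plau (chr14:20836660-20843385, plus strand) encodes urokinase. In PBS macrophages it was 1293, 1315 and 1098 normalized counts, with rIL-13 278, 214 and 405, and with rIL-4 635, 663 and 451. The order was PBS, rIL-4, rIL-13 without overlap. Plau fell by 2.02 ± 0.25 (SE) on the log2 scale with rIL-13 (edgeR adjusted p = 0.00201), in every alternative. It fell by 1.03 ± 0.24 with rIL-4 (adjusted p = 0.0173), a call lost with 18 libraries in 1 model (adjusted p = 0.206) and without PBS mouse 1, PBS mouse 2 or rIL-4 mouse 10. It was the only member of the 3 without overlap between the cytokines that was higher with rIL-4 (log2 difference 0.98 ± 0.24, adjusted p = 0.146, and 0.0112 by DESeq2).

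Plau in microglia was 291, 695 and 411 normalized counts with PBS, 112, 407 and 265 with rIL-13 and 406, 706 and 287.5 with rIL-4. All 3 groups overlapped. Plaur (chr7:24462484-24475968, plus strand), which encodes the urokinase receptor, kept a similar level in all groups of a cell type. It was 1616, 2437.5 and 1476 normalized counts in PBS microglia and 5105, 5569.6 and 5028 in PBS macrophages. Treated macrophages ranged from 4896.5 to 7105 and treated microglia from 1429.9 to 2795. The largest of its 4 fitted responses to a cytokine was 0.28 ± 0.17 (SE) on the log2 scale, in macrophages with rIL-4 (edgeR adjusted p = 0.311), so the ligand fell in macrophages without a detectable change of its receptor.

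Serpinb2 (chr1:107511423-107535478, plus strand) encodes plasminogen activator inhibitor 2, a serpin that inhibits urokinase. Its level followed the mouse more than the treatment. In microglia it was 0, 124 and 0 normalized counts with PBS, 0, 462 and 0.779 with rIL-13 and 0, 260.2 and 0 with rIL-4. A library with 0 counts allows up to 3, by counting error only. Macrophages held 16.9, 101 and 42.6 with PBS, 3.86, 272.5 and 73.9 with rIL-13, and 1.84, 159 and 27.6 with rIL-4. In each treatment and in both cell types the highest value thus belonged to the same animal, mouse 2, mouse 6 and mouse 9. No comparison of Serpinb2 passed, and no fold change is given because most microglia libraries were at or under 3 counts.

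Tgm2 was highest in the same 3 mice within each treatment, in microglia and in macrophages. Their macrophages also had the highest neutrophil marker sums of their treatment, with 72163, 134111 and 38812 normalized counts in mice 2, 6 and 9, but their microglia had the lowest, with 7974, 3724 and 4797. Microglia markers were lowest of their treatment in these mice in both cell types, with 100944, 41098 and 17537 in macrophages and 220248, 103911 and 95362 in microglia. Lyz2, the lysozyme gene that makes up most of the sum of monocyte and macrophage markers, was lowest in their macrophages, with 689565, 278092 and 323124, as was Itga4. Of the other 6 markers of that list, Ccr2, Ly6c2, Plac8 and Emilin2 were highest of their treatment in the macrophages of all 3 mice, and Itgal and Ms4a4c in those of mice 6 and 9 only. Platelet markers (6445.5, 9711 and 7566) and astrocyte markers (8247, 11313 and 6409.9) were highest in their microglia. In macrophages this order did not hold throughout, since astrocyte markers were lowest with PBS in mouse 2 (439.8) and platelet markers were highest with rIL-4 in mouse 10 (13077). All 12 neutrophil markers were found in the table, with 0 counts of Elane in PBS and rIL-13 microglia and of Ly6g in rIL-4 microglia. Without these 3 mice, an alternative added after the data were seen that leaves 2 mice a group, rIL-4 against PBS still called F10 and Tgm2 in microglia (edgeR adjusted p = 0.0243 and 0.0355), against 0.663% of all genes. In macrophages that comparison then called 7 members, against 14.0% of all genes, the additional 1 being F3 (adjusted p = 0.0326). F10 and Plaur were also highest of their treatment in the macrophages of these mice, and Plau in their microglia. Without them the F10 responses of macrophages still passed (adjusted p = 0.00324 for rIL-4 and 0.00751 for rIL-13). The part of these markers in the levels of Tgm2, Serpinb2, F10, Plaur and Plau was not tested.

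**Figure D5:**
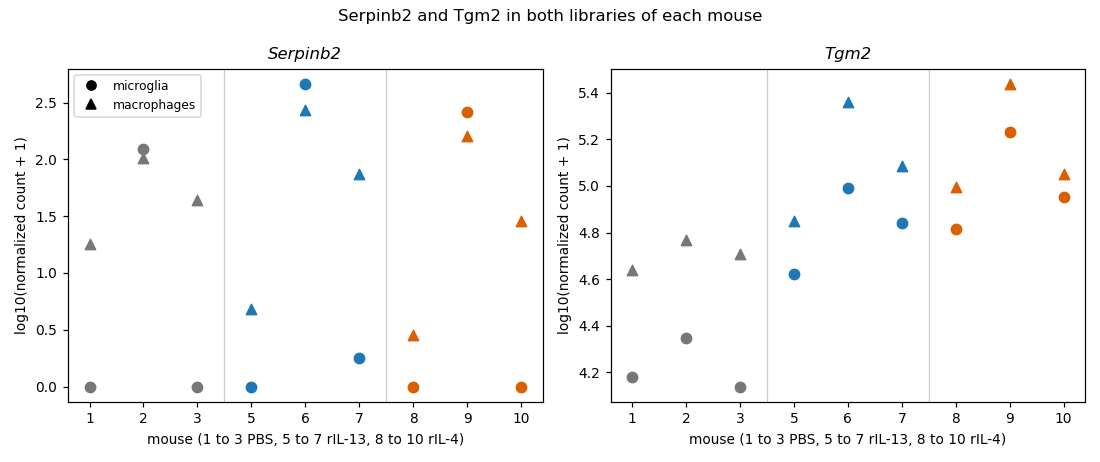
Serpinb2 (left) and Tgm2 (right) in the microglia (circles) and macrophages (triangles) of each mouse, as log10 of the normalized count plus 1. Colours mark treatments, grey PBS, blue rIL-13 and orange rIL-4. Mice 2, 6 and 9 hold the highest value of their treatment in both cell types for both genes.

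The cell types themselves differed in most of these genes. With PBS, 8 of the 9 passed between microglia and macrophages (edgeR adjusted p at most 0.00657), where 40.9% of the 14715 genes tested did. F3 alone was higher in microglia, by 3.67 ± 0.44 (SE) on the log2 scale or 12.7-fold. Lower in microglia were Thbs1 (34.9-fold), F10 (22.9-fold), F13a1 (6.58-fold), Tgm2 (3.13-fold), Plaur (2.96-fold), Plau (2.77-fold) and Fn1 (2.01-fold). With rIL-13, 6 passed against 26.7% of all genes, and with rIL-4 6 passed against 23.4%. Tgm2, Plau and Serpinb2 were not among them in either treatment. The F3 call with rIL-4 (4.25 ± 1.28, adjusted p = 0.0494) was of groups that overlapped, and it was lost with all genes that had any count (adjusted p = 0.0546) and without rIL-4 mouse 8 or mouse 9 (adjusted p up to 0.262).

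Since each mouse gave both libraries, these comparisons were also fitted with the mouse as a replicate block. This added Tgm2 with rIL-13 (log2 difference -0.96, edgeR adjusted p = 0.00622) and with rIL-4 (-0.57, adjusted p = 0.0225), and in each of the 6 treated mice the macrophages held more Tgm2 than the microglia. Without the block, the log2 difference of microglia from macrophages for F10 was -4.52 ± 0.59 (SE) with PBS and -2.58 ± 0.36 with rIL-4. For Tgm2, also without the block, it was -1.65 ± 0.19 and -0.62 ± 0.48.

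An interaction term over all 18 libraries asked whether a cytokine acted differently on microglia and macrophages. No member passed for rIL-4, where 0.992% of 16535 genes did by edgeR, and 3 members had an unadjusted p under 0.05, as did 12.4% of all genes. These were F10 (1.88 ± 0.67 SE more on the log2 scale in microglia, adjusted p = 0.231), F13a1 (1.10 ± 0.42, adjusted p = 0.268) and Fn1 (-1.55 ± 0.45, adjusted p = 0.139). DESeq2 called Fn1 (adjusted p = 0.0287), with 4.17% of all genes. With the mouse as a replicate block, 2 members passed, against 1.14% of all genes in that fit. They were Fn1 with -1.63 (adjusted p = 0.0345) and Tgm2 with 1.03 (adjusted p = 0.0332). F10 passed without PBS mouse 2 (adjusted p = 0.0356), whose PBS microglia had the highest F10, and without mice 2, 6 and 9 (adjusted p = 0.0327, against 0.450% of all genes). For rIL-13 no member passed by edgeR, with or without the block, against 0.0181% and 0.0242% of all genes. There 1 member, Fn1, had an unadjusted p under 0.05 (-1.72 ± 0.46, adjusted p = 0.401), as did 5.83% of all genes. DESeq2 called it (adjusted p = 0.0241), with 0.931% of all genes.

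Directly between the cytokines, no member passed in macrophages, where 0.250% of all genes did by edgeR, and 3 had an unadjusted p under 0.05, as did 11.1% of all genes. These were F13a1, Thbs1 and Plau, described above, and DESeq2 called all 3, with 3.09% of all genes. In microglia no member passed either, against 0.0385% of all genes. Only F10 had an unadjusted p under 0.05 there, with 1.51 ± 0.58 (SE) on the log2 scale (adjusted p = 0.396), a share of the members near the 11.4% of all genes. DESeq2 called 0 members and 3.58% of all genes.

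Other genes of these systems were read from lists set up by function, but with earlier results of these data known. Of 23 coagulation factors and inhibitors, 13 were tested in macrophages, with a median log2 fold change of 0.34 with rIL-4 beside 0.02 for all genes tested. With rIL-4 2 of them rose and 3 fell, where 14.0% of all genes passed. Besides F7 they were Vkorc1, the vitamin K epoxide reductase (1.42, edgeR adjusted p = 0.000467), Procr, the endothelial protein C receptor (-2.13, adjusted p = 0.000616), Pros1, protein S (-1.12, adjusted p = 0.0143), and F9, factor IX, which was low at 98.2 normalized counts with PBS. With rIL-13 F7 and Vkorc1 rose and Procr fell, where 4.19% of all genes passed. The Vkorc1 response to rIL-4 differed between the cell types (interaction -1.51, adjusted p = 0.00883). In microglia F7 was the 1 gene of this list to pass for rIL-4, of 15 tested with a median of -0.61 beside -0.06, where 2.22% of all genes passed. None passed for rIL-13 by edgeR, where 0.366% of all genes did, with Vwf, the endothelial and platelet von Willebrand factor, at an adjusted p of 0.0524. The endothelial markers given beside Tgm2 moved in the same microglia libraries, and their part in the Vwf value was not tested.

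Of 17 genes of the plasminogen system, 13 were tested in macrophages. With rIL-4 1 rose and 4 fell, where 14.0% of all genes passed, and the median log2 fold change was -0.58 beside 0.02 for all genes. Anxa2, a plasminogen-binding annexin, rose by 0.80 (edgeR adjusted p = 0.0274). Serpine2, the inhibitor protease nexin-1, fell by 4.36 (adjusted p = 0.000221), from 2192 to 103 normalized counts. The others that fell were Vtn, Mrc2 and Plat, none of which exceeded a mean of 92.2 normalized counts in PBS macrophages. With rIL-13, where 4.19% of all genes passed, Serpine2 fell by 2.02 (adjusted p = 0.0184), and Plgrkt, a plasminogen receptor, rose by 0.57 (adjusted p = 0.0477). Serpine2 was also the 1 gene of the list that passed in microglia with rIL-4, where it fell by 2.62 (adjusted p = 0.0137). There 14 genes of the list were tested, and 2.22% of all genes passed. Given PBS, microglia held more Serpine2 than macrophages, by 2.72 on the log2 scale. Microglia markers were also lower in the rIL-4 libraries of both cell types than with PBS, and their part in the Serpine2 difference was not tested.

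Of 25 matrix proteins and their receptors, 21 were tested in macrophages and all 25 in microglia. Postn, the matricellular protein periostin, passed in all 4 comparisons with PBS, rising by 3.19 and 2.81 on the log2 scale in microglia with rIL-13 and rIL-4 and by 2.98 and 1.15 in macrophages (edgeR adjusted p at most 0.04). Sparc, a collagen-binding matricellular protein, fell in microglia with rIL-4 (-1.10, adjusted p = 0.0308) and in macrophages with rIL-13 (-1.53, adjusted p = 0.0377) and rIL-4 (-4.45, adjusted p = 0.000111). It was the only gene of the list called between the cytokines in macrophages, lower with rIL-4 (-2.92, adjusted p = 0.0201), where 0.250% of all genes passed. Sparc averaged 74022 normalized counts in PBS microglia and 6656.5 in PBS macrophages. Microglia markers in macrophages and fibroblast markers in rIL-4 microglia were lower than with PBS too, as given beside F3, and their part in the Sparc values was not tested. Itgb3, the integrin β3 chain that binds fibronectin, vitronectin and thrombospondin, rose in macrophages with rIL-13 (2.82-fold, adjusted p = 0.029) and rIL-4 (5.45-fold, adjusted p = 0.00107). Endothelial markers, given beside Tgm2, were also higher in all treated macrophages than with PBS. Their part in the Itgb3 values was not tested. In all, 4 genes of the list rose and 5 fell in macrophages with rIL-4, where 14.0% of all genes passed. With rIL-13 2 rose and 1 fell there, where 4.19% of all genes passed. The median log2 fold changes of the list in macrophages were -0.069 with rIL-4 and 0.001 with rIL-13, beside 0.019 and 0.005 for all genes. In microglia 1 rose and 3 fell with rIL-4, where 2.22% of all genes passed. Those that fell were Sparc, Itgb5 (-1.65, adjusted p = 0.0339) and Itgam (-1.29, adjusted p = 0.041). With rIL-13 1 rose and 1 fell in microglia, where 0.366% of all genes passed, and the latter was Spp1, osteopontin (-1.78, adjusted p = 0.0305). The microglial medians were -0.708 with rIL-4 and -0.032 with rIL-13, beside -0.059 and -0.001 for all genes.

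The genes whose log2 levels ran most like a member over the 18 libraries differed from member to member. For F10 they included Gda and Metrnl, with a Pearson r of 0.986 and 0.982. For F3 they were Fads2, P3h4 and C1qtnf5 (0.949 to 0.963), for F13a1 Clec4d, Clec4n and Il17ra (0.949 to 0.973) and for Tgm2 Ccl9, Sdc4 and St3gal4 (0.928 to 0.947). Fn1 ran with Plxnd1, Rpn1 and Fndc3a (0.951 to 0.972), Thbs1 with Ninj1, Gm44729 and Plbd2 (0.967 to 0.977) and Plaur with Cers2, Rab20 and Napsa (0.962 to 0.978). Plau had the weakest likeness, to Txnrd1, Ifi203 and Kif3a (0.806 to 0.875), and Serpinb2 ran with Jmjd6, Eef1e1 and Ehd1 (0.861 to 0.9). These values describe libraries that fall into 2 cell types and 3 treatments and pair up by mouse, so no p is given.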

How the data were processed

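RNA-seq was made by the SMART-seq2 protocol, without strand information or molecular identifiers, from sorted cells. The authors deposited 1 table of expected counts per gene, already whole numbers, from STAR 2.5.3a and RSEM 1.3.0 on GRCm38 per the submitters' processing notes, and 50690 of its 53465 gene IDs matched GENCODE vM21. The 9 members and all gene lists were chosen with earlier results of these data known.

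Counts were tested with edgeR 4.0.16 (quasi-likelihood test, filterByExpr, TMM, Benjamini-Hochberg over all genes tested, threshold 0.05) in R 4.3.3. Cytokine comparisons used the 9 libraries of a cell type, cell type comparisons the 6 of a treatment, and interactions all 18. DESeq2 1.42.0 was the alternative and gave the size factors of the normalized counts. Other alternatives were its size factors in edgeR, any count or at least 10 counts in every library as the filter, 18 libraries in 1 model, the mouse as a block, and each mouse left out. Per-kilobase values used the merged exon length. Likeness used log2 of the normalized count plus 1. The 3 genes most like each member were named, except 1 gene that is not reported here. The fits were tested on simulated data. Deviations of the 2 libraries of a mouse from their group means correlated at 0.012 to 0.087, and the pairing comes from the shared animal. Members were described in full, whereas the called genes of the lists were not all named. Each group had 3 mice.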

Additional observations from a re-analysis of the deposited data

How the results depend on the processing

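Of 979 alternative values of the members' log2 fold changes, 893 kept their direction and side of the threshold, 32 lost it, 30 gained it and 24 changed sign. Of 54 mean levels, 5 moved by over 1 SD when counts were scaled to the library total instead of by size factors. The cause was not tested for any of these. Calls in microglia with rIL-4 fell from 2 to between 0 and 2 when 1 mouse was left out, with 0 without PBS mouse 3, and gained F13a1 with DESeq2, with 18 libraries in 1 model and with at least 10 counts in every library. For rIL-13 in microglia the count of 0 became 3 with DESeq2, 1 with any count, 1 with at least 10 counts in every library and 0 to 1 with a mouse left out. In macrophages, rIL-13 gave 4 calls, 2 with 18 libraries in 1 model and 1 to 4 with a mouse left out, the lowest without PBS mouse 3 or rIL-13 mouse 7, and it gained Tgm2 with DESeq2 and with any count. There rIL-4 gave 6 calls, 4 to 6 with a mouse left out and 4 with 18 libraries in 1 model, and gained F3 with DESeq2. Between the cytokines in macrophages the count of 0 became 3 with DESeq2 and 3 with any count. The rIL-4 interaction rose from 0 to 1 with DESeq2, to 2 with the mouse as a replicate block, to 0 to 1 with a mouse left out and to 1 without mice 2, 6 and 9, and the rIL-13 interaction to 1 with DESeq2. The replicate block changed no other call than those given for Tgm2 and Fn1. Apart from the shares given in the sections above, the counts of this paragraph stand without the share of all genes called in each alternative. They therefore do not show whether the calls of the members changed more than those of other genes.

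All fold changes that changed sign were of differences that did not pass. With a mouse left out, log2 values against PBS in microglia ranged for rIL-4 from -0.38 to 0.43 (Plau) and for rIL-13 from -0.20 to 0.56 (F3), -0.022 to 0.23 (Fn1), -0.58 to 0.18 (Thbs1) and -0.026 to 0.34 (Plaur). Plaur ranged from -0.045 to 0.40 between the cytokines in microglia and from -0.048 to 0.23 with rIL-13 in macrophages. Between the cytokines in macrophages F3 ranged from -0.85 to 0.37, F10 from -0.22 to 0.28, Tgm2 from -0.39 to 0.77 and Fn1 from -0.084 to 0.62. Plau between cell types with rIL-13 ranged from -0.90 to 0.065, and the rIL-13 interaction of F13a1 from -0.21 to 0.37 and of Thbs1 from -0.14 to 0.80. Without mice 2, 6 and 9 Thbs1 in microglia with rIL-13 was 0.40 and Plaur between the cytokines in microglia was -0.15.

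Low counts limit F3 in macrophages and Serpinb2 in most libraries. Exons of Tgm2 overlap Rprd1b over 370 bp and Gm20412 over 633 bp, both on the other strand. Libraries without strand cannot separate them, though Rprd1b did not exceed 2350.4 and Gm20412 255.8 normalized counts in any library. On the other strand Fn1 also shares 292 bp of exon with Apol7d and Thbs1 208 bp with Gm29233, which reached 13.1 and 2.26 normalized counts. Serpinb2 shares 291 bp of exon with Serpinb10 on its own strand, which reached 308 normalized counts.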
